A study of Mus musculus with 27 samples.

Results

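The genes described here are the histone genes of the mouse, taken as every entry of 3 tables of Tbx2 siRNA against control siRNA whose symbol begins with Hist1h, Hist2h, Hist3h, Hist4h, H2af, H3f3 or H1f. There were 82 of them among 23420 genes. Of these, 68 were clustered histone genes, with 54 Hist1h, 10 Hist2h, 3 Hist3h and 1 Hist4h symbols, which by symbol are 6 linker histone H1, 18 H2A, 19 H2B, 12 H3 and 13 H4 genes. The other 14 were replacement histone genes, with 8 H2af, 2 H3f3 and 4 H1f symbols. The annotation lists 1 of each kind, Hist3h2bb-ps and H2afy3, as a processed pseudogene, and neither was tested. Cells were parental B16, a mouse melanoma line, and clones 2 and 9, which are B16 cells whose endogenous Tbx2 gene carries an HA tag followed by a neomycin resistance cassette. Each clone was 1 isolate, and its comparison stands for that isolate. Within each line, 3 samples received Tbx2 siRNA and 3 received control siRNA, and RNA was read after 48 h with a kit that sequences the 3′ ends of polyadenylated mRNA. The 9 untransfected samples were not analysed here. All 18 samples compared were B16 cells that had been transfected.

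Histones package DNA into nucleosomes, each built from H2A, H2B, H3 and H4, with H1 on the linker between them. The clustered genes are transcribed mainly while DNA is replicated. Their mRNAs usually end in a short stem-loop in place of a poly(A) tail, and the stem-loop binding protein Slbp holds that structure. Replacement histones are made through the whole cell cycle from ordinary polyadenylated mRNAs and enter chromatin at promoters, in transcribed genes or at sites of damage. Some clustered genes also have a second, polyadenylated mRNA, which differentiated and non-dividing cells use.

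The 3′ ends of these genes are shown because they decide what a poly(A) kit can read. A histone stem-loop, a stem of 6 base pairs around a loop of 4 bases, was searched in the 150 bases after the stop codon of each annotated transcript (GENCODE M21, GRCm38, the build that the authors' mm10 names). It was found in 44 of the 54 clustered genes with an annotated 3′ UTR (81.48%), in 1 of 12 replacement genes (8.33%) and in 57 of 21090 protein-coding genes (0.270%). The replacement gene was H2afx. In the following stretches, written 5′ to 3′ on the mRNA's strand as DNA, capitals mark the stem-loop. The first 3 belong to the clustered and replacement genes of high level that had one, and the others to clustered genes named in the comparisons.
Hist1h1c, chr13:23739507-23739532, plus strand: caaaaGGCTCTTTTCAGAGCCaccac
Hist3h2a, chr11:58955167-58955192, plus strand: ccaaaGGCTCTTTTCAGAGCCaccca
H2afx, chr9:44335235-44335260, plus strand: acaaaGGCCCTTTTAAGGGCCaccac
Hist1h1e, chr13:23621777-23621802, minus strand: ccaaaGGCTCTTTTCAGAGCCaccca
Hist1h4i, chr13:22040961-22040986, minus strand: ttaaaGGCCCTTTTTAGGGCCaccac
Hist1h3c, chr13:23745042-23745067, minus strand: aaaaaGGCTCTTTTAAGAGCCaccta
Hist1h2ae, chr13:23570663-23570688, minus strand: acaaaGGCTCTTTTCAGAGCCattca
Hist1h4h, chr13:23531453-23531478, plus strand: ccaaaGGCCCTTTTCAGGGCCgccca
The form of Hist1h1c, Hist3h2a, Hist1h1e and Hist1h2ae was shared by 26 clustered genes, and the form of H2afx was found in no other histone gene. The stem-loop began between 22 and 59 bases after the stop codon in the 44 clustered genes, with a median of 32.

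A poly(A) signal, AATAAA or ATTAAA, in the last 50 bases of an annotated transcript had the opposite distribution. It was present in 10 of 12 replacement genes (83.33%), in 17 of 54 clustered genes (31.48%) and in 80.82% of protein-coding genes. Both elements were present in 13 clustered genes and in H2afx, which carries the stem-loop close to its stop codon and the signal at the end of a longer transcript. The signals of the most abundant replacement gene, of H2afx and of 3 clustered genes of high level are shown with the signal in capitals.
H3f3b, chr11:116021979-116022008, minus strand: tacaAATAAActagtaagtttggagttttt
H2afx, chr9:44336039-44336068, plus strand: ttttATTAAAggatcgtttggttttgtttt
Hist1h1c, chr13:23740338-23740367, plus strand: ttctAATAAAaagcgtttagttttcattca
Hist3h2a, chr11:58956793-58956822, plus strand: gcccAATAAAataagagtacgtgtataaca
Hist2h2be, chr3:96223713-96223738, plus strand: tattAATAAAgttaccgattagtttc
Hist1h1c and Hist3h2a had both elements, Hist2h2be had the signal without a stem-loop in its annotated 3′ UTR, and Hist1h2bc had neither. The longest annotated 3′ UTR had a median of 152 bases over the clustered genes and 945 bases over the replacement genes.

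The replacement genes held nearly all of the histone reads. Levels are the authors' mean normalized count, which is the same in the 3 tables and is a mean over libraries that the tables do not name. A 3′ end kit reads about the same stretch of every mRNA, so these means can be set beside each other without a correction for length, but they count polyadenylated ends and not all mRNA of a gene. The 14 replacement genes gave 95.25% of the summed histone means and the 68 clustered genes gave 4.75%. H3f3b, 1 of 2 genes for the H3 variant of transcribed chromatin, had the highest mean, 4978.3, or 42.85% of the sum. It was followed by H2afz at 2293.3 and H2afv at 1423.7, which encode closely related H2A variants found at promoters. H1f0, the linker histone of non-dividing and differentiated cells, had 937.0. H2afy, a macroH2A, had 547.7, H2afj 363.5, H3f3a (the second gene for the H3 variant of H3f3b) 362.1, and H2afx, the H2A variant that is phosphorylated at DNA breaks, 150.1.

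Among the clustered genes the median of the authors' mean was 0.716, against 256.1 over the replacement genes and 2.654 over all genes. Means reached 10 in 7 of 68 clustered genes and 50 in 4, which were Hist1h1c (177.8, a linker histone), Hist1h2bc (78.9, an H2B), Hist3h2a (70.9, an H2A) and Hist2h2be (56.9, an H2B). Their longest 3′ UTRs had a median of 1290 bases, against 109 bases over the 47 clustered genes with a mean under 10 and an annotated 3′ UTR. Of the 25 clustered genes with an annotated 3′ UTR of 200 bases or more, 6 had a mean of 10 or more (median 2.336), and of the 29 with a shorter one, 1 did (median 1.168). With a poly(A) signal the median was 2.336 over 17 genes, and without one it was 1.522 over 37. A mean of 0 was listed for 7 clustered genes and 1 replacement gene.

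**Figure D1:**
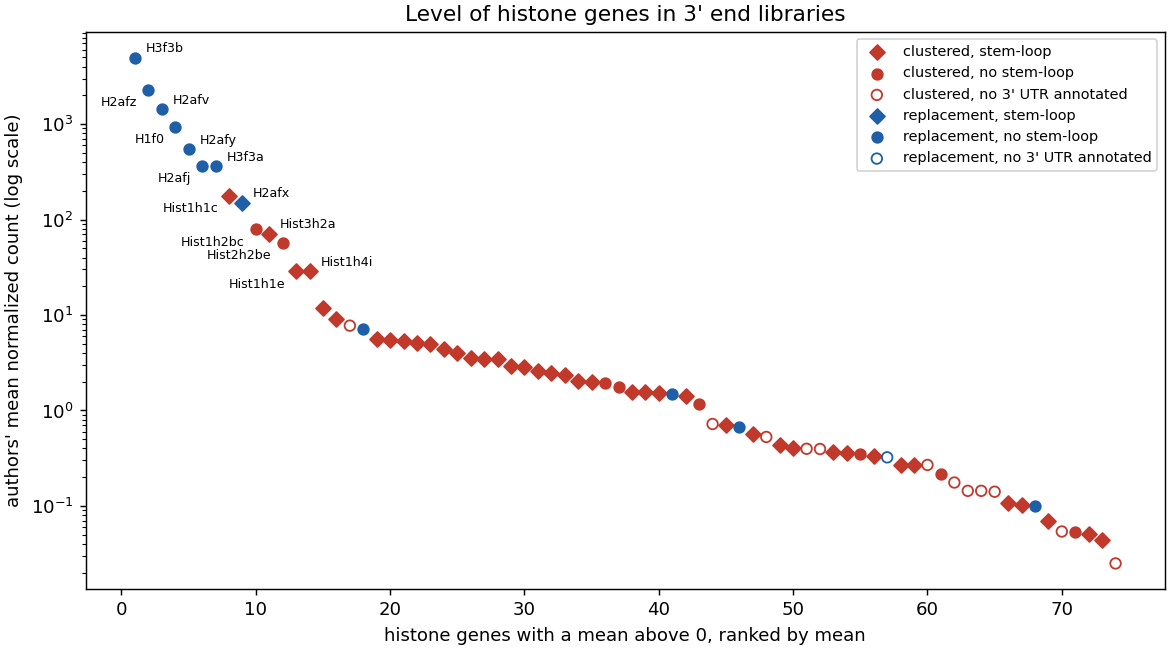
The authors' mean normalized count (log scale) of the 74 histone genes with a mean above 0, ranked, with clustered genes in red and replacement genes in blue, diamonds for genes with a histone stem-loop and open circles for genes with no annotated 3′ UTR. The 7 highest genes are replacement genes, and most clustered genes lie under 10.

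The siRNA lowered its target in each line. The log2 fold change of Tbx2 was −2.96 (SE 0.22, adjusted p = 1.42e-38 by the authors' DESeq2 Wald test) in parental cells, −2.26 (SE 0.21) in clone 2 and −2.20 (SE 0.23) in clone 9, and it passed the test in all 3. The tables used here hold no value per library, so each change, of 3 against 3 samples, is given with the standard error of the authors' fit. That fit may also draw on other libraries, so an error need not be the spread of its own line's samples. A gene is called where the authors' adjusted p was under 0.05, and a gene that their filter on low means left without an adjusted p is not tested. In bulk RNA, fewer cells that express a gene and less RNA of it per cell cannot be told apart. The 8 melanocyte markers checked were all present, at means from 293.6 to 48044.6, while fibroblast markers reached 30.1, macrophage markers 7.1, endothelial markers 1.6 and keratinocyte markers 0.2. Of these non-melanocyte markers, Cd68 in clone 9 was the single gene called (2.13, SE 0.83). Of the 8 melanocyte markers, 3, 5 and 3 were called lower in parental cells, clone 2 and clone 9, with Dct, Tyrp1 and Slc45a2, which serve pigment synthesis, called in each line (Dct −0.77, −0.70 and −0.74). Over all genes tested, 18%, 14.2% and 14.7% were called lower in these lines. The part of the markers in the histone values was not tested.

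The replacement histones split by gene, and the split was the same in the 3 lines. H2afz, H3f3a and H1f0 fell, H2afx and H2afj rose, and H3f3b, H2afv, H2afy and H1fx did not pass the test. Thus 2 of 9 tested members were called higher and 3 lower in each line, with 5 of 14 members not tested. Over all genes tested, 18.5% were called higher and 18% lower in parental cells, 15% and 14.2% in clone 2, and 13.4% and 14.7% in clone 9. The counts of 2 and 3 among 9 genes are too small to set apart from these shares. The median log2 fold change of the 9 tested members was −0.01, −0.09 and −0.13 in parental cells, clone 2 and clone 9, beside 0.02, 0.03 and 0.03 over all genes tested.

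H2afz, whose product is an H2A variant placed at promoters by dedicated remodelers, had the largest fall among replacement histones in each line, close to that of H3f3a in clone 2. Its log2 fold change was −1.13 (SE 0.16, adjusted p = 1.7e-10 by DESeq2) in the parental line, −0.83 (SE 0.16, adjusted p = 6.79e-06) in clone 2 and −1.18 (SE 0.17, adjusted p = 5.64e-11) in clone 9. The level after Tbx2 siRNA was thus 0.458, 0.562 and 0.441 of that after control siRNA. H2afv, which encodes the second variant of this kind, had values of 0.27 (SE 0.18), 0.21 (SE 0.18) and −0.06 (SE 0.18). The 95% intervals of H2afv, from −0.09 to 0.62 in parental cells, from −0.15 to 0.56 in clone 2 and from −0.42 to 0.30 in clone 9, lay above those of H2afz, which ended at −0.81, −0.51 and −0.86.

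The 2 genes for one and the same H3 variant also differed. H3f3a fell, with log2 fold changes of −0.83 (SE 0.17, adjusted p = 5.44e-06 by DESeq2) in parental cells, −0.80 (SE 0.17, adjusted p = 1.65e-05) in clone 2 and −0.77 (SE 0.18, adjusted p = 0.000141) in clone 9. H3f3b, with the higher level by far, had −0.13 (SE 0.10), −0.09 (SE 0.10) and −0.15 (SE 0.10), none called. Its 95% intervals ran from −0.33 to 0.06 in parental cells, from −0.29 to 0.11 in clone 2 and from −0.35 to 0.04 in clone 9, and none overlapped the interval of H3f3a in the same line. Most reads for this protein therefore came from the gene that was not called.

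H1f0 fell by 0.65 (SE 0.18, adjusted p = 0.00193 by DESeq2), 0.65 (SE 0.18, adjusted p = 0.003) and 0.61 (SE 0.19, adjusted p = 0.007) on the log2 scale in parental cells, clone 2 and clone 9. It is a linker histone that rises in many cells as they stop dividing. Its standard error was larger than that of 94.2% of the 364 genes with a mean within 1.2 times its own in parental cells.

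H2afx rose most of the replacement histones, to between 2.38 and 2.76 times the control level. Its log2 fold changes were 1.46 (SE 0.18, adjusted p = 4.38e-14 by DESeq2) in parental cells, 1.46 (SE 0.17, adjusted p = 6.11e-15) in clone 2 and 1.25 (SE 0.18, adjusted p = 2.43e-10) in clone 9. H2afx is known to make both a stem-loop mRNA and a polyadenylated one, and the reads of this kit come from the polyadenylated form. H2afj, an H2A variant that accumulates in human fibroblasts that have become senescent, had log2 fold changes of 0.58 (SE 0.16, adjusted p = 0.0012), 1.01 (SE 0.16, adjusted p = 6.16e-09) and 0.92 (SE 0.16, adjusted p = 1.53e-07). The macroH2A gene H2afy had values of −0.01, 0.03 and −0.13 with standard errors of 0.12, and H1fx, a linker histone with a mean of 7.1, had 0.24 (SE 0.52), −0.43 (SE 0.67) and 0.54 (SE 0.76).

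**Figure D2:**
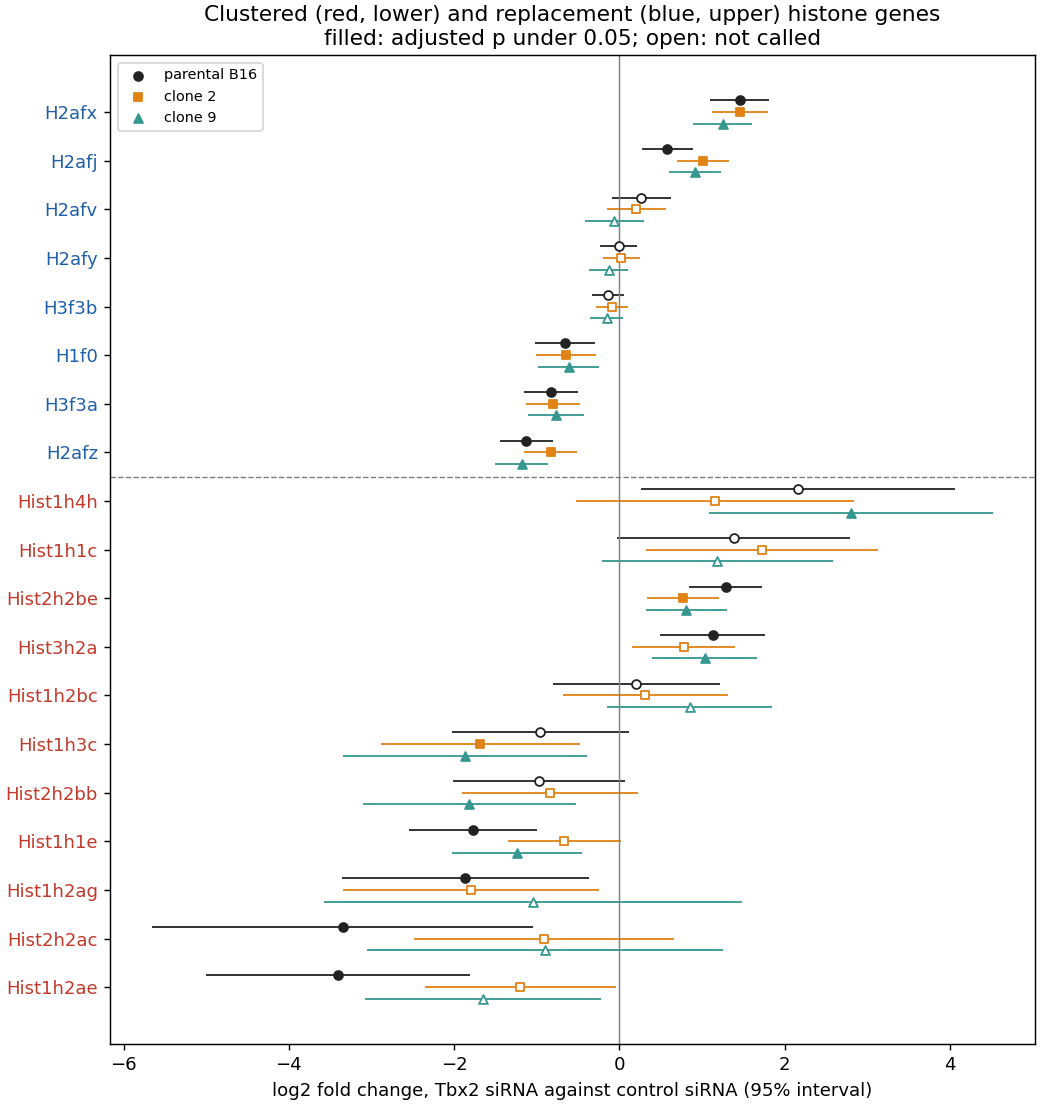
Log2 fold change of Tbx2 siRNA against control siRNA with its 95% interval in parental B16 cells (circles), clone 2 (squares) and clone 9 (triangles), for histone genes called in at least 1 line or with a mean of 50 or more. Replacement genes (blue, upper) have short intervals and the same call in each line, while the intervals of most clustered genes (red, lower) are several times as wide.

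Among replacement genes 5 were called in all 3 lines, and among clustered genes 1. Of the 68, 21 were tested in parental cells and 24 in each clone, since the authors' filter left the rest without an adjusted p, and that filter acts on the authors' mean. In parental cells 2 were called higher and 4 lower, in clone 2 it was 1 and 1, and in clone 9 it was 3 and 3. As shares of the tested members these are 9.5% and 19.0%, 4.2% and 4.2%, and 12.5% and 12.5%, which are not read as different from the shares over all genes given above. The median log2 fold change of tested members was −0.97 in parental B16, −0.72 in clone 2 and −0.83 in clone 9. The median standard error was 0.79, 0.79 and 0.88, against 0.17, 0.17 and 0.18 over the tested replacement genes and 0.20, 0.21 and 0.22 over all tested genes. The clustered medians therefore rest on genes whose own errors are about as large as the medians.

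In at least 1 line 9 clustered genes were called, 3 higher and 6 lower, and none was called in opposite directions. One was called in all 3 lines, 3 in 2 lines and 5 in 1 line. Among the 21 that were tested in every line, 18 had the same sign in all and 13 of these were negative throughout. The same counts across lines were not made over all genes, so these describe the members and are not read as particular to them.

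Hist2h2be, an H2B gene whose polyadenylated mRNA is known from differentiated cells, was the clustered gene called in every line. Its log2 fold change was 1.29 (SE 0.23, adjusted p = 1.48e-07 by DESeq2) in parental cells, 0.77 (SE 0.22, adjusted p = 0.00345) in clone 2 and 0.81 (SE 0.25, adjusted p = 0.00694) in clone 9. Hist3h2a, an H2A gene outside the main cluster, rose in parental cells by 1.13 (SE 0.33, adjusted p = 0.00248) and in clone 9 by 1.03 (SE 0.32, adjusted p = 0.00794). In clone 2 its value was 0.78 (SE 0.32, adjusted p = 0.052). Hist1h4h, an H4 gene with a mean of 5.6, was called in clone 9 at 2.80 (SE 0.88, adjusted p = 0.00776), with 2.16 (SE 0.97) in parental cells and 1.16 (SE 0.86) in clone 2.

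The clustered gene of highest level, Hist1h1c, had large positive values that were not called: 1.38 (SE 0.72, adjusted p = 0.119 by DESeq2) in parental cells, 1.72 (SE 0.71, adjusted p = 0.0529) in clone 2 and 1.19 (SE 0.71, adjusted p = 0.222) in clone 9. Its standard errors were far above those of genes of like level. In parental cells the median standard error of 1073 genes with a mean within 1.2 times its own was 0.16, and 1 of them had an error as large. Hist1h2bc showed the same excess, with a standard error of 0.51 against a median of 0.21 over 991 genes, and log2 fold changes of 0.20, 0.31 and 0.85. Which samples spread these 2 genes cannot be read from the tables used here.

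The clustered genes called lower were 6. Hist1h1e, a linker histone gene with a mean of 28.6, had −1.77 (SE 0.39, adjusted p = 5.57e-05 by DESeq2) in parental cells, −0.67 (SE 0.35, adjusted p = 0.144) in clone 2 and −1.24 (SE 0.40, adjusted p = 0.0105) in clone 9. Hist1h3c, an H3 gene, had −0.95 (SE 0.55, adjusted p = 0.164), −1.68 (SE 0.62, adjusted p = 0.0256) and −1.87 (SE 0.75, adjusted p = 0.0473). The 3 H2A genes called in parental cells and in neither clone were Hist1h2ae at −3.41 (SE 0.82, adjusted p = 0.0002), Hist2h2ac at −3.35 (SE 1.18, adjusted p = 0.0153) and Hist1h2ag at −1.86 (SE 0.76, adjusted p = 0.0412), with means of 9.0, 4.4 and 5.3. In the clones Hist1h2ae had −1.20 (SE 0.59) and −1.65 (SE 0.73), Hist2h2ac −0.91 (SE 0.80) and −0.90 (SE 1.10), and Hist1h2ag −1.80 (SE 0.79) and −1.05 (SE 1.29). Hist2h2bb, an H2B gene, was called in clone 9 at −1.81 (SE 0.66, adjusted p = 0.0246), with −0.97 (SE 0.53) in parental cells and −0.84 (SE 0.54) in clone 2. Hist1h4i, an H4 gene of the same level as Hist1h1e, stayed near 0, with 0.03 (SE 0.35), 0.12 (SE 0.35) and −0.01 (SE 0.37).

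Split by level, with bands chosen after the values were seen, the clustered genes did not move as 1 group. All 4 with a mean of 50 or more had positive values in every line, with medians of 1.21, 0.78 and 0.94 in parental cells, clone 2 and clone 9. Of these, Hist1h1c and Hist1h2bc were called in no line. Over all genes of that level the medians were −0.013, −0.003 and −0.004. The 3 clustered genes with a mean from 10 to 50 had medians of −0.95, −0.67 and −1.24, with 1, 1 and 2 called lower. Over all genes of that band, 10.77%, 8.79% and 6.97% were called lower. Of the tested clustered genes with a mean under 10, values were negative for 12 of 14, 15 of 17 and 14 of 17, with medians of −1.56, −0.84 and −0.90. Over all tested genes with a mean under 10 the medians were 0.17, 0.23 and 0.21, and 2.47%, 0.89% and 1.05% were called lower. Called lower in this band were 3, 0 and 1 clustered genes, and called higher 0, 0 and 1, the last being Hist1h4h, beside 7.33%, 5.42% and 5.05% of all genes in the band called higher. The remaining tested members, not named so far, were Hist1h1d, Hist1h2ab, Hist1h2be, Hist1h2bg, Hist1h2bj, Hist1h2bk, Hist1h4b, Hist1h4c, Hist1h4d, Hist1h4f, Hist2h4 and Hist4h4, at means from 2.336 to 5.451. Their values ran from −3.08 (Hist1h2bj in clone 2, SE 1.43) to 0.87 (Hist1h1d in clone 2, SE 0.92), and none was called.

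**Figure D3:**
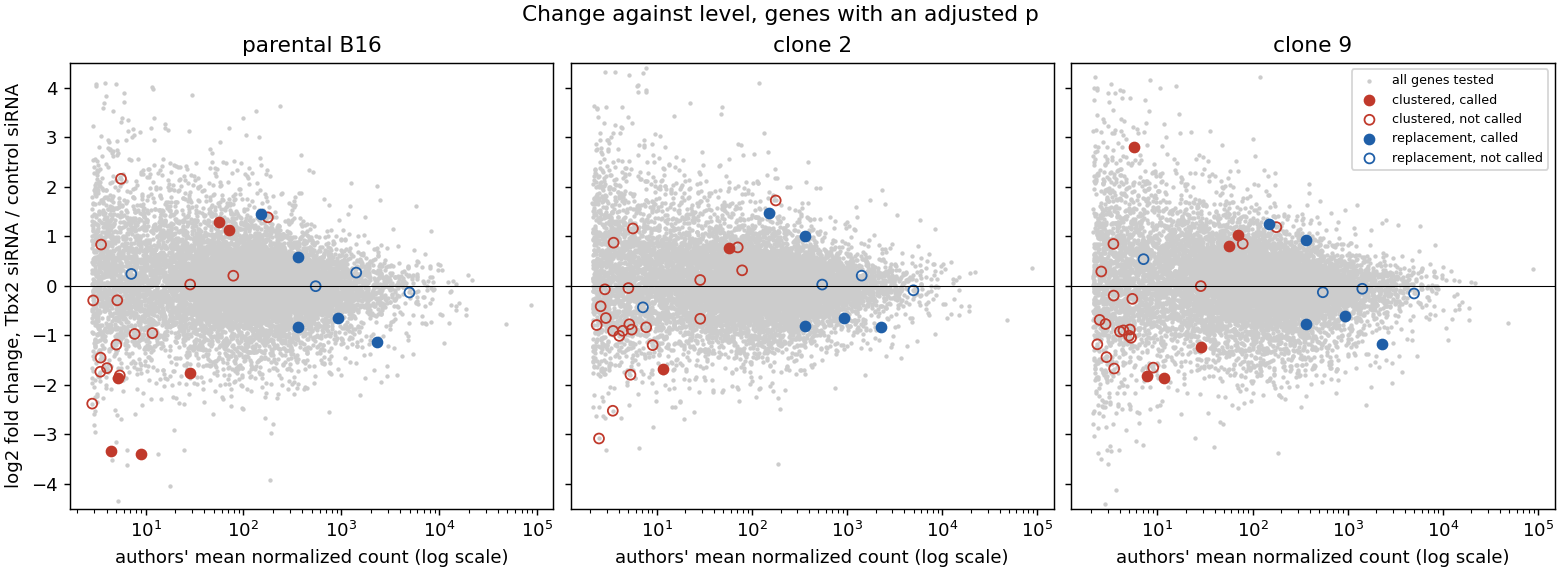
Log2 fold change of Tbx2 siRNA against control siRNA by the authors' mean normalized count (log scale) in each line, for genes with an adjusted p (grey, all genes within the plotted range of changes; red, clustered; blue, replacement; filled, called). The 4 clustered genes with a mean of 50 or more lie above 0 in each panel and most of those under 10 lie below it.

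Members without an adjusted p carried little information. In parental cells 44 members had a p-value without an adjusted p, with standard errors from 0.848 to 7.259, and 22 of them shared 1 of 3 repeated fold changes (equal to 3 decimals).

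Differences between lines were small against their errors. No member passed a z test of the difference in log2 fold change between lines, with p adjusted over all genes, in any of the 3 pairs of lines. Of 30, 30 and 33 members tested, 2, 0 and 1 had an unadjusted p under 0.05. The 2 between parental cells and clone 2 were Hist1h2ae, with a difference of 2.21 (SE 1.01, adjusted p = 1 by the z test), and Hist1h1e, with 1.11 (SE 0.53, adjusted p = 1). The 1 between clones 2 and 9 was Hist1h2bg, with 3.37 (SE 1.46, adjusted p = 0.639). Genes called in 1 line and not in another were therefore not shown to differ between them, and the wide errors do not show that they were equal.

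Genes of histone supply were read beside the histones themselves. A list of 27 replication genes, the enzymes and accessory factors that copy DNA with the cyclins Ccne1, Ccne2 and Ccna2 and the kinase Cdk2 of S phase, fell nearly throughout, with 26, 24 and 26 of 27 called lower in parental cells, clone 2 and clone 9 and none called higher. Over all genes tested, 18%, 14.2% and 14.7% were called lower. The median log2 fold changes of the listed genes were −1.14, −0.92 and −1.16. Among members with a mean of 50 or more the largest changes in parental cells were those of Mcm6 (−2.20, SE 0.20) and Mcm5 (−1.76, SE 0.21) of the replicative helicase, Lig1 (−1.71, SE 0.24), the ligase of the lagging strand, and Rfc5 (−1.55, SE 0.21) of the clamp loader. The clustered genes under a mean of 10, and those from 10 to 50, also had negative medians. The 4 clustered genes with a mean of 50 or more had positive ones, 1.21, 0.78 and 0.94 in parental cells, clone 2 and clone 9. The part of replication in the histone values was not tested.

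Among 24 histone chaperones tested, 10 were called lower and 1 higher in parental cells, 7 and 4 in clone 2, and 11 and 0 in clone 9, with medians of −0.25, −0.13 and −0.25, beside the shares over all genes of 18.5% higher and 18% lower, 15% and 14.2%, and 13.4% and 14.7%. The 4 with the largest falls in parental cells all handle newly made H3 and H4. Hat1, which acetylates new H4, had −1.55 (SE 0.17), −1.21 (SE 0.17) and −1.58 (SE 0.18) in parental cells, clone 2 and clone 9. Asf1b, which binds the H3-H4 dimer, had −1.40 (SE 0.20), −1.14 (SE 0.20) and −1.61 (SE 0.21). Chaf1b and Chaf1a, subunits of the assembly factor at the replication fork, had −1.32 (SE 0.22) and −1.14 (SE 0.14) in parental cells and were called lower in both clones too. Hira, Daxx and Vps72, chosen after their values were seen because they serve replacement histones, were called in no line, and their log2 fold changes ran from 0.03 to 0.47. Of the others on the list that serve them, Cabin1, of the Hira complex, was called higher in clone 2 (0.55, SE 0.18), and its partners Ubn1 and Ubn2 and Znhit1, which helps to load the H2afz product, were called in no line. Atrx, the partner of Daxx, was called lower in parental cells (−0.43, SE 0.12) and clone 9 (−0.48, SE 0.12), and Anp32e, which removes the H2afz product, in clone 9 (−0.34, SE 0.10).

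The machinery that transcribes, cuts and holds clustered histone mRNA was read next. Of 14 genes tested, 5 were called lower and 0 higher in parental cells, 2 and 1 in clone 2, and 6 and 0 in clone 9, with medians of −0.35, −0.23 and −0.31. Over all genes tested 18%, 14.2% and 14.7% were called lower, so the count in clone 2 is at that share. Npat, the coactivator of clustered histone transcription, was called in each line, at −0.74 (SE 0.16, adjusted p = 2.5e-05 by DESeq2), −0.57 (SE 0.16, adjusted p = 0.00201) and −0.79 (SE 0.18, adjusted p = 0.000141). Srrt (−0.58, SE 0.12), which links the cap to 3′ end formation, Lsm10 (−0.55, SE 0.14), of the U7 particle, and Sympk (−0.53, SE 0.20), a scaffold of the cleavage complex, were the next largest calls in parental cells. Slbp, named after its values were seen because it holds the stem-loop, had −0.46 (SE 0.21, adjusted p = 0.0637), −0.33 (SE 0.21, adjusted p = 0.249) and −0.72 (SE 0.24, adjusted p = 0.0123). Of the histone variants with other symbols, 1 was tested, the centromeric H3 variant Cenpa. It fell in each line, with log2 fold changes of −1.53 (SE 0.22), −0.72 (SE 0.22) and −1.66 (SE 0.22). Hjurp, the chaperone of Cenpa on the list above, was named after its values were seen. Hjurp was called higher in parental cells (0.83, SE 0.25) and clone 2 (0.77, SE 0.24), and not in clone 9 (0.08, SE 0.25).

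**Figure D4:**
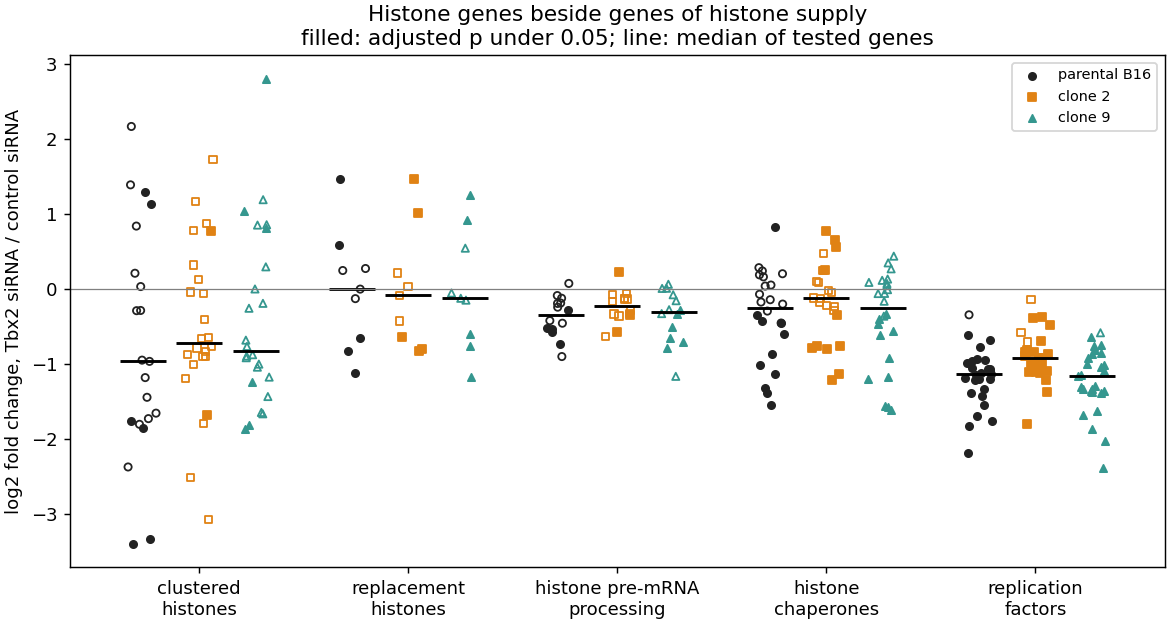
Log2 fold change of each tested gene in the 3 lines for clustered histones, replacement histones and 3 lists of genes of histone supply, with filled symbols for genes called and a black line at the median. Nearly all replication factors lie below 0, while the histone groups spread to both sides.

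An siRNA can also lower mRNAs that pair with its seed, positions 2 to 8 of its guide strand. The guide of siRNA 06 is shown with its seed in capitals. That number stands in the title of a supplementary sheet of the study on parental cells, and its methods do not name the siRNA that was sequenced. The deposited comparisons are named with siTbx2a in all 3 lines, and the sample titles read siTbx2. For the clones, the sources used here tie no siRNA number to either name.
guide: aGAAAUUUgcaucaaaucc
The matching site was present in an annotated 3′ UTR of 2 of 12 replacement genes (16.7%), 6 of 54 clustered genes (11.1%) and 3304 of 21090 protein-coding genes (15.7%). The 2 replacement genes were H2afz and H3f3a, which both fell in each line. Of the 6 clustered genes, Hist1h2ae and Hist1h1d were tested, and Hist1h1d had values of 0.83 (SE 0.90), 0.87 (SE 0.92) and −1.67 (SE 1.0), none called. The sites of these 4 genes are shown with the site in capitals.
H2afz, chr3:137866595-137866624, plus strand: ttccaaccaaccAAATTTCtgcattcgagt
H3f3a, chr1:180802723-180802752, minus strand: tttaaaataagtAAATTTCttattgacggc
Hist1h2ae, chr13:23570592-23570621, minus strand: gatttaggactaAAATTTCcgatttgtatt
Hist1h1d, chr13:23559838-23559867, plus strand: attatttttcatAAATTTCaatgtgggaga
The site was in 2 of 4 annotated H2afz transcripts with a 3′ UTR and in 2 of 3 of H3f3a. H1f0, which fell as well, had none, and neither had H3f3b or H2afv. Without the members that hold a site, 1 of 7 tested replacement genes, H1f0, was called lower in each line. The part of seed pairing in the changes of H2afz and H3f3a was not tested.

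Promoters were read from the RefSeq table (GRCm38.p6) for 61 clustered and 11 replacement genes, over 300 bases around the start on both strands, with motifs chosen after the calls were known. H2afx and Hist2h2be had no match there and were not searched. CCAAT was found in 85.2% of clustered, 63.6% of replacement and 37.92% of all 27025 promoters. TATAAA was found in 57.4%, 9.1% and 14.16%. Neighbouring clustered genes can share a promoter region, so these counts are not of separate promoters. GTGTGA, the core of the T-element that T-box proteins bind, was found in 11.5%, 18.2% and 14.42%. Tested genes with it were H3f3a, Hist1h3c, Hist1h2ae and Hist2h2bb, each called lower in at least 1 line, and Hist1h2bg, not called. The windows of Hist1h2ae and Hist1h2bg overlap. H2afz, H1f0, Hist1h1e, Hist1h2ag and Hist2h2ac were called lower in at least 1 line without it. The share called lower over all genes with this motif was not computed, so no link of motif and change is read from these genes. The E-box CACGTG was found in 0 of 61 clustered promoters and in 1 of 11 replacement promoters, against 7.24% of all promoters. That promoter belongs to H2afz and is shown, plus strand, with the E-box and the CCAAT boxes (CCAAT, or ATTGG where the box is on the other strand) in capitals.
H2afz promoter, chr3:137864237-137864536: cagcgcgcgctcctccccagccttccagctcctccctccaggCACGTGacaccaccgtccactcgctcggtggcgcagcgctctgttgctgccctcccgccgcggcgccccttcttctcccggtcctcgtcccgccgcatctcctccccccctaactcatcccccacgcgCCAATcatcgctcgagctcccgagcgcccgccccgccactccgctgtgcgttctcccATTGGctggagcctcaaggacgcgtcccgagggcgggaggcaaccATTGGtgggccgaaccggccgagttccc
A match of letters is a description and says nothing of binding.

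Some reads cannot be assigned with certainty. The last 75 bases of 12 of 67 clustered genes are also found, base for base, within a transcript of another gene, among them Hist1h1e, whose last bases lie in a transcript of Hist1h2be that overlaps it on the same strand. One of the 4 annotated ends of H2afz recurs in a transcript of the gene Gm8203. A gene on the opposite strand overlaps H3f3a, H1f0, H2afj, H2afx and H2afy, and Trim17 overlaps Hist3h2a on the same strand. Of the clustered genes called lower, Hist1h2ae, Hist1h2ag, Hist2h2ac and Hist2h2bb overlap a gene on the opposite strand. Hist2h2bb also overlaps Gm42743 on the same strand, and Hist1h3c had no overlap and no shared end. The sources used here do not say whether counting used the strand. Of the replacement genes, H3f3b and H2afv were tested and free of both, and neither was called in any line.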

How the data were processed

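RNA of 27 samples, 3 for each of 9 combinations of line and siRNA, was sequenced at 3′ ends. Per the labels and methods, the authors used FastQC 0.11.7 on the reads, STAR 2.6.1d for alignment to mm10, featureCounts (Subread 1.6.2) for counting per gene, and DESeq2 1.28.1 for the fit. The deposited signal is the authors' mean normalized count. The deposited log2 fold change and its standard error, the score (the authors' Wald statistic), the p-value with its adjusted form come from the authors' fit, and these comparison columns are the values used here. The tables used here hold no counts per library, so nothing was fitted again and depth per sample is unknown. Spike-ins were left out. Intervals of 95%, z tests between lines with Benjamini-Hochberg adjustment over all genes, and sequence searches were computed in Python 3.11.15 with scipy 1.17.1, and the tests were tested on simulated data. Members and gene lists were chosen with earlier results of these data known. Genes named are members called in a line, tested clustered members, replacement members with a mean of 50 or more, and at most 4 called genes of a list by size of change in parental cells with a mean of 50 or more. Some exceptions are marked where they occur. Named outside this rule without a mark are Tbx2, Cd68, H1fx and the chaperones Cabin1, Ubn1, Ubn2, Znhit1, Atrx and Anp32e. Genes named only for their annotation, for a mean of 0 or for a shared or overlapping end also lie outside it.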

Additional observations from a re-analysis of the deposited data

How the results depend on the processing

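No paired analysis was possible because the tables hold no values per library, and for the same reason no replicate could be left out. Centring the log2 fold changes changed no call among the genes named and no count by more than 1.5 times. At an adjusted p under 0.01 the clustered genes called lower numbered 2, 0 and 0 in parental cells, clone 2 and clone 9. Over all genes it was 1574 of 11619, 1204 of 12021 and 1282 of 12021. Among genes with a mean of 10 or more, 1 clustered gene was called lower in parental cells and 3 were called higher in clone 2, where Hist3h2a (adjusted p = 0.0456 by the Wald test) and Hist1h1c (adjusted p = 0.0464) were then called. Over all genes of that level, 2084 of 10119 were called lower in parental cells and 1752 of 10119 higher in clone 2. Against an absolute log2 fold change of 0.5, clustered genes called higher numbered 1, 0 and 0 in parental cells, clone 2 and clone 9, and lower 2, 0 and 0. Replacement genes called lower numbered 1, 0 and 1 there, and higher 1 in parental cells and 1 in clone 9. Over all genes, that test called 394 of 11619, 233 of 12021 and 193 of 12021 higher, and 487, 218 and 370 lower. Under that test H2afx stayed called in every line, and H3f3a and H1f0 in none. The calls of Hist1h2ag in parental cells and Hist1h3c in clone 9 were lost when genes removed by the authors' filter were included in the adjustment.

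Over members with a mean of 10 or more the clustered median log2 fold change was 0.20, 0.31 and 0.81 in parental cells, clone 2 and clone 9, positive where it was negative over all tested members. Over every member with a p-value it was 0.27 for clustered genes in clone 9 and −0.53 for replacement genes in parental cells. In clone 9, 25 members without an adjusted p shared 1 of 2 repeated fold changes, and the median of 0.27 was itself 1 of those 2. Another 2 settings were added after the data were seen. Without members that hold a guide seed site, 1 replacement gene was called lower in each line. Without members whose last bases recur in another gene's transcript or that overlap another gene, 0 replacement genes were called higher and 0 lower in each line, with 2 tested, and the clustered counts were 1 higher and 0 lower in parental cells and 1 lower in clone 9. The tested clustered genes had median standard errors of 0.79, 0.79 and 0.88 in parental cells, clone 2 and clone 9, which limits what could be called.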
